A study of Homo sapiens with 6 samples.

Results

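The proteasome genes described here are the protein-coding genes of the deposited table whose names begin with PSM, a letter from A to G and a number. There were 50 such genes among 60612 genes in all, of which 19942 are protein-coding. The names of 2 of them only begin like a subunit: PSMC3IP, a partner of the meiotic recombinases, and PSME3IP1, a binding partner of PSME3. They were kept apart, which left 48 genes: 19 of the 20S core, 20 of the 19S regulatory particle, 4 activators, 1 inhibitor and 4 assembly factors.

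The cells were SH-SY5Y, a human neuroblastoma line, infected with a control vector, called stuffer in the sample titles and here (3 libraries), or with a vector labelled as overexpressing the long noncoding RNA CDKN2B-AS1 (3 libraries). The title of the series speaks of a mutation of this gene, whereas the sample labels and the design text speak of overexpression. The column names add the unexplained tags LVx1 (stuffer) and LVx2 (labelled overexpression), and whatever they mark cannot be told apart from the vector itself. CDKN2B-AS1 itself stood at 0.272, 0.288 and 0.191 FPKM in the stuffer libraries and at 0.338, 0.304 and 0.353 FPKM in those labelled overexpression, a ratio of means of 1.33 without overlap. The difference is small, so the groups keep the names of their labels throughout. Separate cultures are not mentioned in the labels, so the spread behind every p-value may be technical. FPKM are assigned fragments scaled to gene length and to the total of the library, and values of single libraries are given in the order of replicates 1, 2 and 3 throughout. Recovered depths spanned 29048596 to 45102020 fragments for stuffer and 20466583 to 48996425 for labelled overexpression. Markers of sympathetic neuroblasts were present in both groups, with 11 of 12 high enough to test, DBH among them and TH listed near 0. Their summed level was 1223 to 1370 FPKM in stuffer and 1295 to 1409 FPKM in labelled overexpression libraries. DBH held 588 and 613 FPKM of it on average, and GATA3 and GATA2 had higher and STMN2 lower values in labelled overexpression without overlap, at log2 fold changes of 0.40, 0.27 and -0.25 (limma-trend, Benjamini-Hochberg adjusted p = 0.101, 0.230 and 0.194). Immune markers summed to at most 1.93 FPKM and epithelial markers to at most 1.22 FPKM in any library, with PTPRC and CD3E at 0. Fibroblast markers summed to 26.6 to 40.3 FPKM in stuffer and 29.8 to 40.1 FPKM in labelled overexpression libraries. On average LUM held 14.5 and 17.0 FPKM of this, PDGFRB 11.0 and 8.98, COL3A1 3.68 and 3.71, and DCN 3.20 and 2.81. COL1A1 and COL1A2 were under 1 FPKM on average. Schwann and glial markers summed to 3.03 to 6.92 FPKM in stuffer and 3.34 to 3.54 FPKM in labelled overexpression libraries. The part of other cells in the results was not tested.

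The proteasome degrades proteins tagged with ubiquitin. Its barrel, the 20S core, is built of rings of alpha subunits (PSMA genes), which form the gate, around rings of beta subunits (PSMB genes), some of which carry the protease sites. The 19S regulatory particle caps the core: its ATPases (PSMC genes) unfold and thread substrates, and some of its other subunits (most PSMD genes) bind or remove ubiquitin chains. PSME genes encode alternative caps, PSMF1 an inhibitor, and PSMG genes chaperones of core assembly. Interferons induce PSMB8, PSMB9 and PSMB10, which replace the constitutive catalytic subunits in the immunoproteasome. When proteasomes are inhibited, the factor NFE2L1 raises transcription of most subunit genes together.

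Most 20S genes lay below and most 19S genes above their stuffer levels. Log2 fold changes, given here as labelled overexpression minus stuffer on log2(FPKM + 0.5), were below 0 in 13 of 16 tested 20S genes and above 0 in 16 of 20 tested 19S genes. The medians were -0.17 for the 20S core and 0.13 for the 19S particle, beside 0.05 over all 13984 tested genes, of which 56.8% lay above 0. Rescaling to a common total moved the median of all genes to 0.15, and then 10 of 16 20S genes were below and 18 of 20 19S genes above 0. No member passed the test on its own: in limma-trend with Benjamini-Hochberg adjustment over all tested genes at 0.05, 0 of 45 tested members were called, where 1.14% of all tested genes were (0.529% higher and 0.608% lower). The smallest adjusted p-values were 0.0805 for PSMB4, 0.0944 for PSMD1 and 0.113 for PSMB3 (limma-trend, Benjamini-Hochberg). At an unadjusted limma-trend p under 0.05 there were 4 members higher and 5 lower, 8.89% and 11.1% of those tested, against 10.4% and 7.34% of all tested genes, 17.7% in both directions. The groups did not overlap in 6 members with higher and 10 with lower labelled overexpression values, 13.3% and 22.2%, against 14.2% and 9.9% of all tested genes, 24.1% in both directions. The shares of members with a low p were thus not far from those of the whole table, while separate and lower groups were more frequent among members. However, the median level was 39.9 FPKM in tested members and 5.55 FPKM in all tested genes, and abundant genes had lower fold changes. The shares were not set against genes of like level. A further 3 members, PSMA8, PSMB9 and PSMB11, were below the filter of 1 FPKM in at least 3 of the 6 libraries and were not tested.

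**Figure D1:**
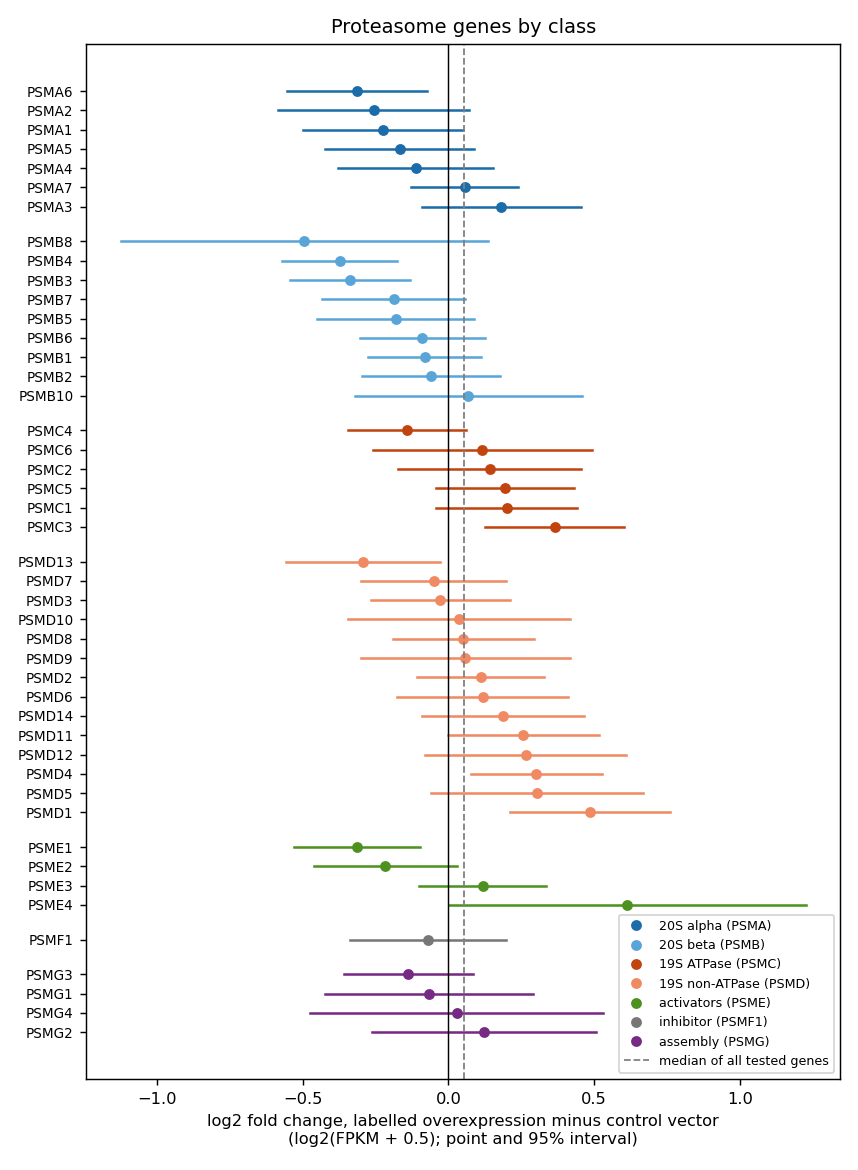
Log2 fold change of each of the 45 tested proteasome genes on the log2(FPKM + 0.5) scale, with 95% intervals from limma-trend (3 libraries per group), coloured by class; the dashed line is the median of all tested genes. Most 20S genes (blue) lie left of 0 and most 19S genes (orange) right of it, and PSMB4, PSMB3, PSMA6, PSMC3, PSMD4, PSMD1, PSMD13, PSME1 and PSME4 have intervals that leave out 0 before adjustment.

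The contrast of core and cap was seen in every labelled overexpression library. Averaged over the tested members and set against the stuffer mean, the 20S genes stood at 0.03, -0.03 and -0.00 in the stuffer libraries and at -0.11, -0.24 and -0.13 in the labelled overexpression libraries on the log2 scale. The 19S genes stood at 0.02, -0.07 and 0.05 and at 0.12, 0.11 and 0.17. The groups did not overlap for either class on this scale. After rescaling to a common total, a calculation added after the data were seen, the 20S means were 0.05, -0.07 and 0.02 against -0.02, -0.15 and 0.01 and overlapped, while the 19S means of 0.04, -0.12 and 0.08 against 0.20, 0.21 and 0.32 stayed separate. The difference of the 2 means, core minus 19S, was 0.01, 0.05 and -0.05 in the stuffer libraries and -0.23, -0.35 and -0.31 in the labelled overexpression libraries. In summed FPKM the 20S genes came to 2592 ± 64.4 in stuffer and 2332 ± 76.4 in labelled overexpression libraries, and the 19S genes to 1308 ± 14.7 and 1422 ± 35.0 (SD, n = 3 each). As a share of the FPKM summed over all genes, the 20S genes took 0.692%, 0.648% and 0.663% against 0.641%, 0.620% and 0.687%, with overlap, and the 19S genes 0.344%, 0.328% and 0.339% against 0.396%, 0.395% and 0.395%, without. The ratio of the sums, 20S over 19S, was 2.01, 1.98 and 1.96 with stuffer and 1.62, 1.57 and 1.74 with labelled overexpression. This ratio does not depend on how a library is scaled. Members are not replicates of a condition, and these class values were not tested.

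**Figure D2:**
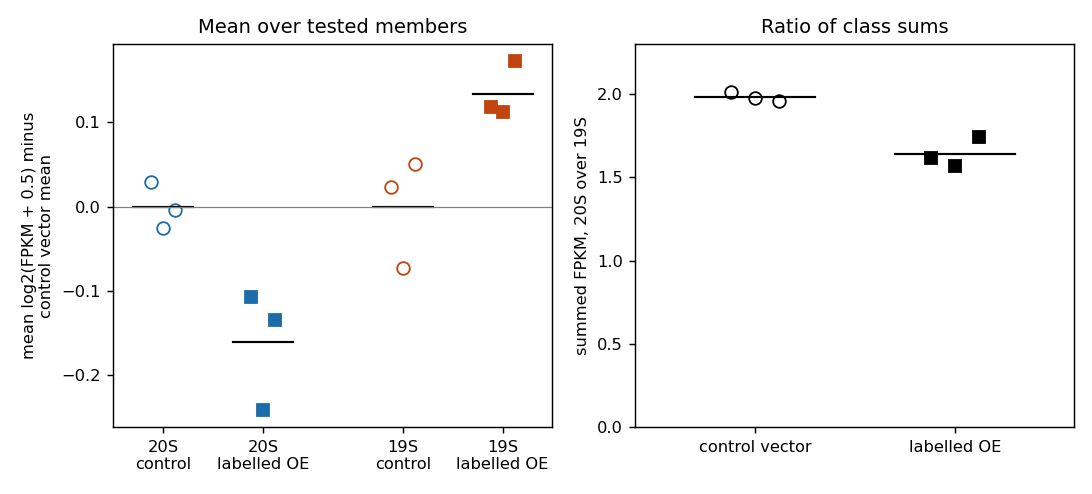
Left: mean over tested 20S (blue) and 19S (orange) genes of log2(FPKM + 0.5) minus the stuffer mean, one point per library, replicates 1 to 3 from left to right, with the group mean as a line. Right: summed FPKM of the 20S genes divided by that of the 19S genes. Labelled overexpression (labelled OE, filled) lies below stuffer (open) for the 20S mean and for the ratio, at 1.57 to 1.74 against 1.96 to 2.01, and above it for the 19S mean.

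Transcript length and level differed between the classes, and both moved with fold changes in the whole table. The median transcript was 889.5 nucleotides long in tested 20S genes and 1343.5 in tested 19S genes. Over all tested genes the median log2 fold change was -0.02 in transcripts under 1000 nucleotides, 0.03 from 1000 to 2000, 0.12 from 2000 to 4000 and 0.23 above. Within the range under 1000 nucleotides the 11 20S genes had a median of -0.11 and the 4 19S genes 0.12, and from 1000 to 2000 nucleotides the 3 20S genes had -0.26 and the 13 19S genes 0.12. With the length trend removed from each library the medians were -0.19 for 20S and 0.11 for 19S. Fold changes were lower in abundant genes: the median over the 621 tested genes of at least 100 FPKM was -0.14. In that range the 7 20S genes had a median of -0.18, near that of all genes, and the 5 19S genes 0.11. With trends against level removed by cyclic loess, a setting chosen after the data were seen, the 20S median was -0.07 and the 19S median 0.18. Across the 45 members Pearson's r of log2 fold change was 0.44 with log10 transcript length and -0.24 with log2 mean FPKM, as a description over genes that share the same libraries.

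**Figure D3:**
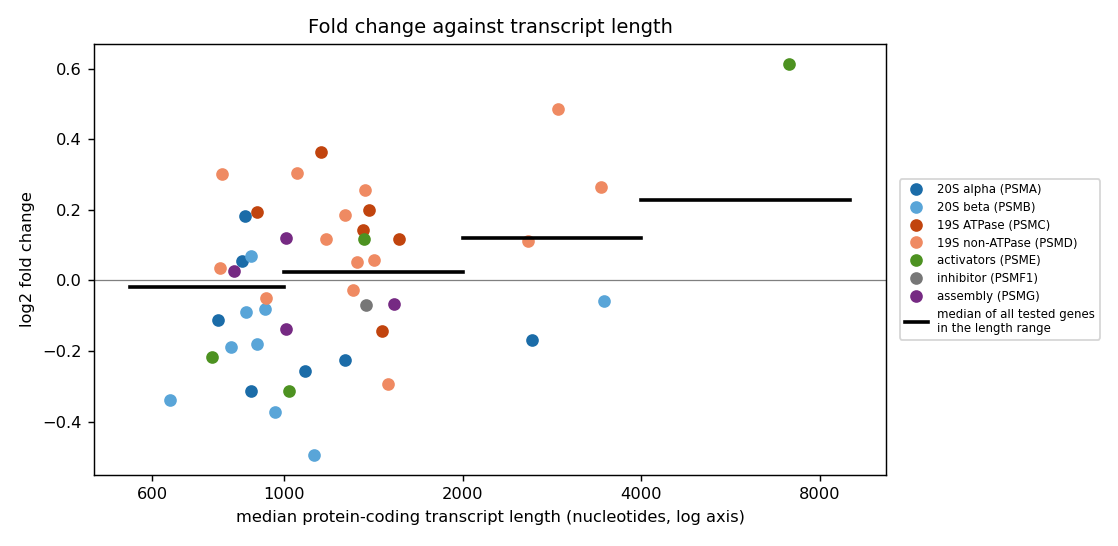
Log2 fold change of the 45 tested members against the median length of their protein-coding transcripts (log axis), coloured by class; black bars are the medians of all tested genes in 4 length ranges, -0.02, 0.03, 0.12 and 0.23. Below 2000 nucleotides most 20S genes lie under the bars and most 19S genes above them.

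The promoters of the 20S and the 19S genes with the smallest unadjusted p are shown so that the DNA in front of genes with opposite directions can be compared. Each run is 200 bases, from 250 to 51 bases before the RefSeq start site (GRCh38.p14), 5′ to 3′ on the gene's strand. Capitals mark matches, on either strand, to TGACNNNGC or TGAGNNNGC (cores of the antioxidant response element, to which NFE2L1 binds), CCAAT (the box bound by NF-Y) or CCGGAAG (an ETS site).
PSMB4 (chr1:151399323-151399522, plus strand): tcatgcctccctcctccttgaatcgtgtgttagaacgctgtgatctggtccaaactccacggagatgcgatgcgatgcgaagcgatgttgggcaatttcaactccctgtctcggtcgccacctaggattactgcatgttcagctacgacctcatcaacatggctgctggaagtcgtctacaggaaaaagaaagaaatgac
PSMB3 (chr17:38752491-38752690, plus strand): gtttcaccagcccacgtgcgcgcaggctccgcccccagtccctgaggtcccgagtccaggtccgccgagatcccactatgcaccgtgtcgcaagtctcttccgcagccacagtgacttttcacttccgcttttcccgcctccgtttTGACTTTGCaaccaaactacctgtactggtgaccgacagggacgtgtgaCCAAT
PSMD1 (chr2:231056617-231056816, plus strand): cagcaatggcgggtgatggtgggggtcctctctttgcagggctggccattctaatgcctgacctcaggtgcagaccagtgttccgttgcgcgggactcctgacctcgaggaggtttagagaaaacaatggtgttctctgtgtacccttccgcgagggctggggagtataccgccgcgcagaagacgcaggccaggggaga
PSMC3 (chr11:47426490-47426689, minus strand): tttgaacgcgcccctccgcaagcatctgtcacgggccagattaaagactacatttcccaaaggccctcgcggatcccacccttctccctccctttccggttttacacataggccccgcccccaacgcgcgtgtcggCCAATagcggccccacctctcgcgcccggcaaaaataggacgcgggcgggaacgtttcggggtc
PSMB3 held TGACNNNGC beginning 104 bases and CCAAT beginning 55 bases before the start, and PSMC3 held CCAAT beginning 114 bases before it. The windows of PSMB4 and PSMD1 held none of these letters. Of the 48 members 42 were found in the promoter table. Either antioxidant response form stood in 4 of 15 20S windows (26.7%) and 4 of 19 19S windows (21.1%), against 19.04% of all 35116 promoters, and CCAAT in 6 of 15 (40.0%) and 6 of 19 (31.6%), against 27.4%. The 4 motifs did not overlap one another in the runs shown. A match is a description of letters, not a site in use.

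Among the alpha subunits, the log2 fold change was below 0 in 5 of 7 tested genes, with a median of -0.17. PSMA6 (ENSG00000100902, chromosome 14, 35278633 to 35317493) had the smallest p, at 49.2, 49.5 and 48.7 FPKM in stuffer and 41.2, 35.5 and 41.9 FPKM in the labelled overexpression libraries. All 3 labelled overexpression libraries were below all controls, with a log2 fold change of -0.31 (SE 0.11, limma-trend, Benjamini-Hochberg adjusted p = 0.177). PSMA1 (ENSG00000129084, chromosome 11) stood at 28.96, 29.2 and 35.1 against 27.9, 26.8 and 24.6 FPKM, a log2 fold change of -0.22 (SE 0.12, limma-trend, Benjamini-Hochberg adjusted p = 0.372). Its groups did not overlap either, though the lowest control and the highest labelled overexpression library were close. PSMA7, by far the most abundant alpha message, stood at 362, 384 and 385 against 389.8, 401 and 385.8 FPKM (log2 fold change 0.06, SE 0.08), with groups that almost touched. PSMA2 had the lowest FPKM of those tested over all libraries. It stood at 29.8, 23.1 and 29.97 FPKM in stuffer and 21.9, 20.8 and 26.2 FPKM in labelled overexpression, and its groups overlapped. Scaled instead to the median protein-coding transcript length, PSMA5 was lowest, at 56.8 over all libraries against 195 for PSMA2. PSMA3 was the other alpha gene above 0, at 0.18 (SE 0.12), while PSMA4 and PSMA5 had -0.11 and -0.17. PSMA8, the testis form of PSMA7, was listed at 0 in all 6 libraries.

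PSMA1, PSMA2 and PSMA6 share exon bases on the same strand with other protein-coding genes of the table, RP11-140L24.4, RP11-111K18.1 and RP11-561B11.2, over 814, 1445 and 919 bases. These genes held 78.6, 61.8 and 93.4 FPKM in stuffer and 67.6, 51.4 and 75.0 FPKM in labelled overexpression libraries on average. Their log2 fold changes of -0.21, -0.26 and -0.32 were close to the -0.22, -0.26 and -0.31 of their partners. The authors' fragment numbers hold fractions, so the levels of these members are uncertain where fragments were split. Without the members that share exon bases with an expressed gene, the medians were -0.14 over 12 20S genes and 0.12 over 13 19S genes.

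The lower 20S sum came mostly from the beta subunits, with log2 fold changes below 0 in 8 of 9 tested genes and a median of -0.18; under a common total 5 of 9 were below 0 with a median of -0.07, and under cyclic loess 6 of 9 with a median of -0.01. Their summed level was 1978 ± 82.7 FPKM in stuffer and 1722 ± 77.3 FPKM in labelled overexpression libraries, while the alpha sum was 615 ± 20.9 and 610 ± 2.90 FPKM (SD, n = 3 each). PSMB4 (ENSG00000159377, chromosome 1, 151399560 to 151401937), a structural subunit, stood at 145, 135 and 141 FPKM in stuffer and 109, 104 and 112 FPKM in labelled overexpression libraries. Every labelled overexpression library was well below every control, at 0.771 of the control mean and a log2 fold change of -0.37 (SE 0.09, limma-trend, Benjamini-Hochberg adjusted p = 0.0805). PSMB3 (ENSG00000277791, chromosome 17, 38752741 to 38764225), also without a protease site and the most abundant core message, stood at 546, 577 and 500.2 against 452, 424 and 406 FPKM. Its groups were again separate, with a log2 fold change of -0.34 (SE 0.09, limma-trend, Benjamini-Hochberg adjusted p = 0.113). Under a common total and cyclic loess the log2 fold change was -0.23 and -0.15 for PSMB3, and -0.26 and -0.27 for PSMB4. PSMB1 and PSMB2 had -0.08 and -0.06, both above 0 in at least 1 alternative fit, and their groups overlapped.

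The constitutive catalytic subunits had lower mean FPKM in labelled overexpression, but no gene separated the groups. PSMB6, which carries the caspase-like site, stood at 298, 287 and 279 FPKM in stuffer and 268, 247 and 298 FPKM in labelled overexpression libraries. PSMB7, with the trypsin-like site, stood at 215, 180.2 and 194 against 186, 152 and 178 FPKM. PSMB5, with the chymotrypsin-like site targeted by proteasome inhibitors, stood at 493, 429 and 419 against 371, 353 and 464 FPKM. In each of the 3 the groups overlapped, and for PSMB5 and PSMB6 this was through labelled overexpression replicate 3. Log2 fold changes were -0.09 (95% interval -0.30 to 0.13), -0.19 (-0.43 to 0.06) and -0.18 (-0.45 to 0.09) for PSMB6, PSMB7 and PSMB5. That of PSMB6 was above 0 under a common total and cyclic loess, at 0.02 and 0.06. In the same fits PSMB7 had -0.08 and -0.06, and PSMB5 had -0.07 and -0.0015.

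The interferon-inducible counterparts were scarce. PSMB10, the counterpart of PSMB7, stood at 10.9, 13.4 and 9.35 FPKM in stuffer and 13.3, 12.2 and 9.81 FPKM in labelled overexpression libraries, and its log2 fold change was 0.07 (SE 0.17). PSMB8, the counterpart of PSMB5, stood at 2.28, 2.48 and 2.11 against 2.27, 0.856 and 1.55 FPKM. Replicate 1 of the labelled overexpression was at control level and the other two below it, with a log2 fold change of -0.49 (SE 0.28, limma-trend, Benjamini-Hochberg adjusted p = 0.392), which was -0.22 without labelled overexpression replicate 2 and -0.74 without replicate 1. PSMB9, the counterpart of PSMB6, was below the filter at 1.04, 0.908 and 0 FPKM in stuffer and 0.239, 0.0732 and 0.532 FPKM in labelled overexpression libraries. It rested on 157 and 88 fragments in stuffer replicates 1 and 2 and on 0 in replicate 3, so the controls spanned the other group. PSMB8 and PSMB9 overlap by 139 bases on opposite strands. Of the FPKM of each pair, PSMB8 took 0.460% to 0.574% of PSMB8 plus PSMB5 in stuffer and 0.242% to 0.609% in labelled overexpression libraries, and PSMB10 took 4.61% to 6.91% and 5.22% to 7.40% of PSMB10 plus PSMB7. PSMB10 shares 640 exon bases with CTC-479C5.12 on the same strand, so its level and its share are uncertain. PSMB11, the thymic subunit, was listed at 0 in all 6 libraries.

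**Figure D4:**
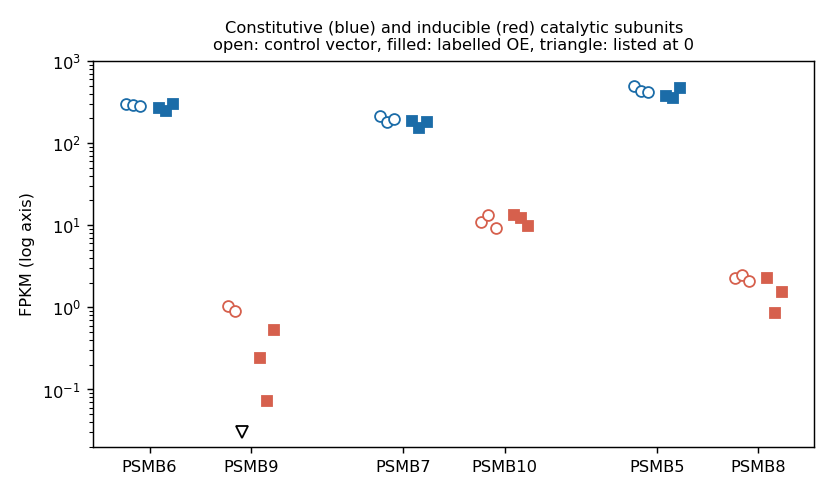
FPKM (log axis) of the constitutive catalytic subunits (blue) and their interferon-inducible counterparts (red) in each library, replicates 1 to 3 from left to right, open for stuffer and filled for labelled overexpression (labelled OE). The constitutive genes lie between 152 and 493 FPKM and the inducible ones at 13.4 FPKM or less, and the groups overlap in every gene; the triangle marks PSMB9 in stuffer replicate 3, listed at 0.

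In the 19S particle 5 of 6 ATPase genes had log2 fold changes above 0, with a median of 0.17. PSMC3 (ENSG00000165916, chromosome 11, 47418769 to 47426473), which encodes the ATPase Rpt5, stood at 156, 163 and 143 FPKM in stuffer and 202, 219 and 176 FPKM in the labelled overexpression libraries. All 3 labelled overexpression libraries were above all controls, at 1.29 times their mean and a log2 fold change of 0.36 (SE 0.11, limma-trend, Benjamini-Hochberg adjusted p = 0.133). It was called after rescaling to a common total, at 0.48, and after cyclic loess, at 0.49, and in no other of the 18 alternative fits. PSMC1, which encodes Rpt2, stood at 21.7, 21.5 and 20.8 against 24.2, 24.4 and 25.1 FPKM. These groups were narrow and separate, yet the log2 fold change was 0.20 (SE 0.11, limma-trend, Benjamini-Hochberg adjusted p = 0.368), and 4667 of the 6129 exon bases of PSMC1 also belong to NRDE2 on the other strand. A processed copy, PSMC1P1, was listed at 33.5 and 39.0 FPKM on average, so the level of PSMC1 is uncertain. PSMC6, the least abundant ATPase message, stood at 12.5, 11.5 and 17.4 FPKM in stuffer and 13.7, 15.1 and 15.5 FPKM in labelled overexpression. PSMC2, PSMC5 and PSMC6 had 0.14, 0.19 and 0.12 with overlapping groups, and PSMC5 shares 655 exon bases with FTSJ3 on the other strand, which had 0.13. PSMC4, which encodes Rpt3, was the exception at -0.14 (SE 0.09).

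Of the 14 PSMD genes 11 had log2 fold changes above 0, with a median of 0.11. PSMD1 (ENSG00000173692, chromosome 2, 231056845 to 231173116), the scaffold Rpn2, stood at 21.3, 17.6 and 18.8 FPKM in stuffer and 28.1, 25.2 and 27.9 FPKM in the labelled overexpression libraries. It was the largest difference of the particle, with separate groups, 1.41 times the control mean and a log2 fold change of 0.49 (SE 0.12, limma-trend, Benjamini-Hochberg adjusted p = 0.0944). With the length trend removed PSMD1 had 0.36 (limma-trend, Benjamini-Hochberg adjusted p = 0.190), no larger than the 0.36 of PSMC3. PSMD4 (ENSG00000159352, chromosome 1), the ubiquitin receptor Rpn10, stood at 163, 157 and 158 against 205, 212 and 174 FPKM, a log2 fold change of 0.30 (SE 0.10, limma-trend, Benjamini-Hochberg adjusted p = 0.172), again with separate groups. PSMD11, the lid subunit Rpn6, also had separate groups, at 0.26 (SE 0.12).

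Among the other PSMD genes, PSMD2 and PSMD14, the scaffold Rpn1 and the deubiquitinase Rpn11, had 0.11 and 0.19, PSMD12 had 0.27, PSMD6 had 0.12, and their groups overlapped. PSMD8, the highest of the PSMD genes in FPKM, stood at 176, 202 and 177 FPKM in stuffer and 203, 205 and 169 FPKM in labelled overexpression libraries. Scaled instead to the median protein-coding transcript length, PSMD4 was highest, at 684 over all libraries against 439 for PSMD8. PSMD13, the lid subunit Rpn9, went the other way from most of the particle, at 87.8, 82.4 and 93.3 against 77.9, 61.3 and 76.6 FPKM. Its groups were separate, with a log2 fold change of -0.29 (SE 0.12, limma-trend, Benjamini-Hochberg adjusted p = 0.239). PSMD3 and PSMD7 had -0.03 and -0.05. PSMD5, PSMD9 and PSMD10, chaperones that help assemble the base and leave the finished particle, had 0.30, 0.06 and 0.04. PSMD9, the least abundant of the PSMD genes, stood at 5.93, 5.29 and 6.502 against 5.92, 5.87 and 6.68 FPKM. Its level is uncertain, because it shares 1307 exon bases with RP11-87C12.2 on the same strand. Without these 3 chaperones the 19S median was 0.14.

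**Figure D5:**
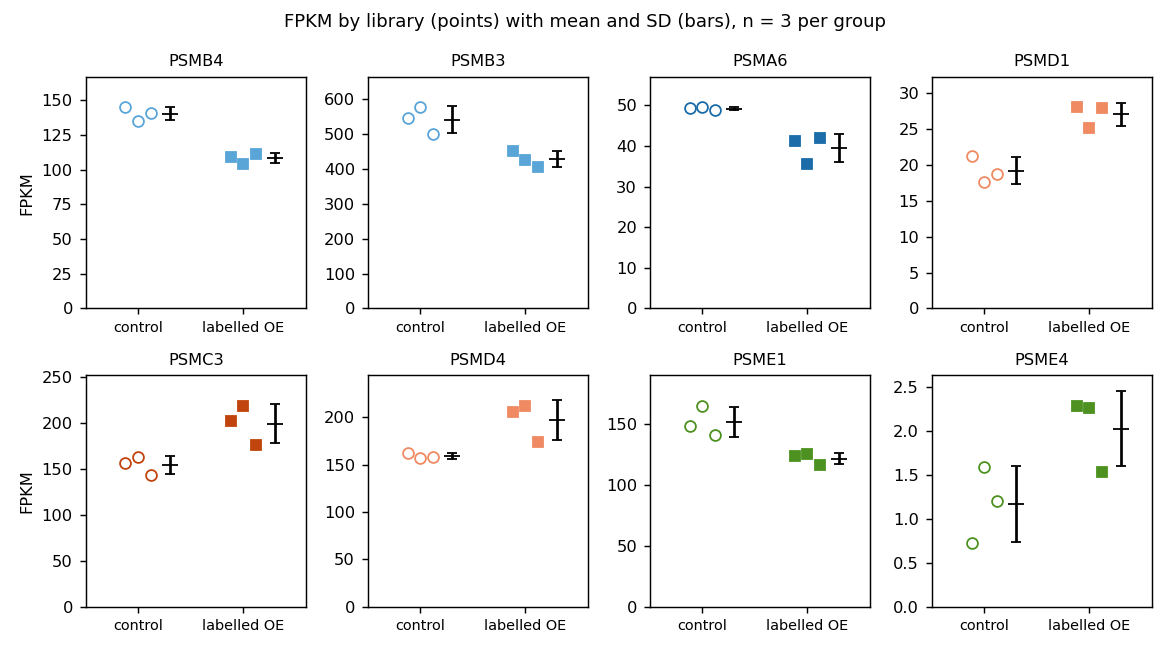
FPKM of 8 members in each library (points, replicates 1 to 3 from left to right, open for stuffer, filled for labelled overexpression, labelled OE), with the mean and SD of 3 libraries beside them; each axis starts at 0. PSMB4, PSMB3, PSMA6 and PSME1 are lower and PSMD1, PSMC3 and PSMD4 higher in labelled overexpression with no overlap, while the groups of PSME4 overlap; no adjusted p passed 0.05.

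The activators went both ways, with 2 of 4 above 0 and a median of -0.05, which was 0.06 under a common total. PSME1 (ENSG00000092010, chromosome 14, 24136163 to 24138967), which forms the interferon-inducible 11S cap together with PSME2, stood at 148, 165 and 142 FPKM in stuffer and 124, 125 and 116 FPKM in the labelled overexpression libraries. Here too the groups were separate, at a log2 fold change of -0.31 (SE 0.10, limma-trend, Benjamini-Hochberg adjusted p = 0.150). PSME2 had -0.22 (SE 0.11), at 59.3, 54.5 and 58.4 against 50.1, 44.3 and 54.0 FPKM, also without overlap. PSME2 holds the microRNA gene MIR7703 and shares 216 exon bases with RNF31 on the other strand. PSME3, the nuclear 11S activator, had 0.12 (SE 0.10), and the ratio of PSME1 to PSME3 was 1.78, 2.14 and 1.603 in stuffer and 1.41, 1.44 and 1.23 in labelled overexpression libraries. PSME4, the large nuclear activator PA200, was the scarcest tested member, at 0.725, 1.58 and 1.201 against 2.28, 2.25 and 1.53 FPKM. It rested on 340 to 780 fragments per library. Labelled overexpression replicate 3 lay just under the highest control, and the log2 fold change was 0.61 (SE 0.27, limma-trend, Benjamini-Hochberg adjusted p = 0.281), beside a median of 0.23 over all tested genes with transcripts of at least 4000 nucleotides, its own length range. It was 0.36 with the length trend removed and 0.41 without stuffer replicate 1 (limma-trend, Benjamini-Hochberg adjusted p = 0.578 and 0.480). The unadjusted limma-trend p of PSME4 was 0.0498 in the main fit. It was above 0.05 in both alternatives just named and in several others, among them no filter, median-of-ratios factors, the replicate block and cyclic loess. In the remaining fits that held PSME4 it was below 0.05. PSMF1, the inhibitor PI31, stood at 14.9, 15.7 and 15.0 against 13.9, 14.8 and 14.7 FPKM, a log2 fold change of -0.07 (SE 0.12) with groups that almost touched.

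The assembly factors had a median of -0.02, which was 0.08 under a common total, and no unadjusted limma-trend p under 0.05. PSMG3 stood at 42.5, 41.1 and 41.9 FPKM in stuffer and 37.0, 38.2 and 38.8 FPKM in labelled overexpression libraries. Its groups were separate, with a log2 fold change of -0.14 (SE 0.10, limma-trend, Benjamini-Hochberg adjusted p = 0.504). PSMG2, which pairs with PSMG1 as an assembly chaperone, stood at 20.6, 17.9 and 27.6 against 21.8, 22.0 and 27.5 FPKM, so the groups overlapped, at 0.12 (SE 0.17). PSMG4, the partner of PSMG3, was the least abundant at 2.34, 2.90 and 1.76 against 2.23, 2.63 and 2.21 FPKM, and PSMG1 had -0.07. TUBB2B, at 73.4 and 89.4 FPKM on average, shares 174 exon bases with PSMG4 on the other strand.

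The levels of subunits that occur together in one particle were far from equal at the message. Over PSMA1 to PSMA7 and PSMB1 to PSMB7 the stuffer means ran from 27.4 FPKM for PSMA5 to 541 FPKM for PSMB3, a ratio of 19.7. The deposited gene length is that of all exons of all listed transcripts merged, 8378 bases for PSMA2 against a median protein-coding transcript of 1085, so FPKM is low in genes with many long minor transcripts. Scaled instead to that transcript length, the same genes ran from 60.1 for PSMA5 to 985 for PSMB3, a ratio of 16.4. Among the 6 ATPases the ratio of highest to lowest was 12.7 in FPKM and 6.06 when scaled to transcript length. The genes are spread over 17 chromosomes, with 8 members on chromosome 14 and 7 on chromosome 17. PSME1 and PSME2 lie near each other on chromosome 14, as do PSMB8 and PSMB9 on chromosome 6.

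Genes that work with the proteasome under other names, from a list of 34, gave 0 calls among 31 tested, beside 1.14% of all tested genes. Their median log2 fold change was 0.18, with 23 above and 8 below 0. All 5 subunits and chaperones with other names were above 0 (4 under cyclic loess, under median-of-ratios factors and with the length trend removed), with POMP, the maturation factor of the core, at 0.05, ADRM1, the ubiquitin receptor Rpn13, at 0.18 and AKIRIN2, which brings proteasomes into the nucleus, at 0.29 (SE 0.13). Of the bound enzymes 4 of 5 lay above 0, with the ubiquitin ligase UBE3C at 0.63 (SE 0.24). The shuttle and extraction factors had a median of 0.27 and 7 of 9 above 0. UBQLN1, a shuttle for ubiquitinated proteins, stood at 18.9, 18.2 and 20.3 FPKM in stuffer and 24.6, 26.7 and 28.0 FPKM in the labelled overexpression libraries. Its groups were widely separate, with a log2 fold change of 0.46 (SE 0.12, limma-trend, Benjamini-Hochberg adjusted p = 0.0980). The 4 genes of subunit transcription lay above 0, with a median of 0.24, and 3 did with the length trend removed. NFE2L1 stood at 5.59, 3.75 and 4.71 against 6.23, 7.39 and 7.66 FPKM, a log2 fold change of 0.56 (SE 0.19, limma-trend, Benjamini-Hochberg adjusted p = 0.170).

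All 4 ubiquitin genes lay below 0, 3 of them under a common total and 2 under cyclic loess. Their median was -0.14, beside -0.14 over the 621 tested genes of at least 100 FPKM, the range in which all 4 lie. UBB, a polyubiquitin gene, stood at 668, 681 and 651 FPKM in stuffer and 544, 466 and 507 FPKM in the labelled overexpression libraries. No library of one group reached the other, and the log2 fold change was -0.40 (SE 0.09, limma-trend, Benjamini-Hochberg adjusted p = 0.0672). RPS27A, which encodes ubiquitin fused to a ribosomal protein, had -0.17 (SE 0.09). Of the ubiquitin-activating enzymes UBA6 had 0.24 (SE 0.21) and UBA1 0.06. In the interferon group TAP1, a peptide transporter subunit, had -0.13 (SE 0.26).

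PSMC3IP, which shares only the beginning of its name with the ATPase gene, had the smallest adjusted p of all 50 names. It stood at 10.6, 9.54 and 9.48 FPKM in stuffer and 14.6, 16.6 and 14.9 FPKM in the labelled overexpression libraries, with a log2 fold change of 0.61 (SE 0.13, limma-trend, Benjamini-Hochberg adjusted p = 0.0618). Its groups were separate, and it shares 775 exon bases with MLX on the other strand, which had 0.20. PSME3IP1 had -0.00 (SE 0.12).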

How the data were processed

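Per the submitters' processing notes, STAR 2.7.9 and featureCounts 2.0.1 were used with GRCh38.p13 and hg38, and the options, strand use included, are not given in the sources used here. The authors deposited FPKM per gene and library, per the file headers. FPKM times gene length summed to 1e+06 in each library, and values were multiples of 0.01 fragments (tolerance 0.001), of which 44.2% to 49.0% were whole, so overlapping or repeated genes may share fragments. Gene length equalled the merged exons in 50 of 50 members. Transcript lengths came from GENCODE v29.

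Genes of at least 1 FPKM in at least 3 of 6 libraries were logged as log2(FPKM + 0.5) and fitted with limma (version 3.58.1, under R version 4.3.3), using its mean-variance trend, no covariate and Benjamini-Hochberg adjustment over 13984 genes. The fit was tested on simulated data. Recovered fragments entered only limma-voom, as an alternative. Per-library values are given for the 2 members of smallest p and the highest and lowest tested member of each class, the catalytic subunits and members below the filter; a few other members, and of the associated genes the one of smallest p per group, are given as well. A few genes of the lists are not reported here. Members and lists were chosen with earlier results of these data known. Alternatives were other pseudocounts, filters, scalings, weights, the block, length, class membership and leaving out each library.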

Additional observations from a re-analysis of the deposited data

How the results depend on the processing

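The opposite medians of core and cap kept their signs in all 18 alternative fits, from -0.22 to -0.06 for the 20S core and from 0.08 to 0.24 for the 19S particle, and the difference of the medians stayed between -0.33 and -0.24. The number of 20S genes below 0 was 10 to 14 of 16, and of 19S genes above 0 14 to 18 of 20. Of the 45 tested members 33 kept their sign. Rescaling to a common total gave medians of -0.0636 for 20S, 0.24 for 19S, 0.0616 for activators, 0.0817 for assembly factors and 0.15 over all tested genes, and 1 member was called, PSMC3 at 0.48 (PSMC3IP was also called there, at 0.72). Cyclic loess, added after the data were seen, gave -0.0708 for 20S, 0.18 for 19S and 1 called member, and median-of-ratios factors gave 0.0842 for 19S. The activator median was -0.22 with the stricter filter, which removed PSME4.

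Leaving out one library gave -0.21 to -0.11 for 20S, 0.11 to 0.17 for 19S, -0.10 to 0.00 for activators and -0.0930 to 0.0382 for assembly factors, with 5 to 12 members at an unadjusted limma-trend p under 0.05 (9 with all libraries, 5 without labelled overexpression replicate 2) and 0 called members. Over the whole table the 159 calls became 269 with the stricter filter, 265 with array weights, 0 without a filter (3538 genes at an unadjusted limma-trend p under 0.05), 0 without the trend (2304) and 0 to 124 without one library: 3 without the first stuffer library, 124 without the third and 0 without any other single library, where 1665 to 2304 genes had an unadjusted p under 0.05. The share of calls that were higher was 46.5%, against 77.7% with a common total, 33.1% with median-of-ratios factors and 62.2% with limma-voom. With the replicate number as a block there were 229 calls, 0 called members and 13 members at an unadjusted limma-trend p under 0.05. Deviations of same-numbered libraries correlated at -0.02, 0.11 and 0.12, and those of differently numbered libraries at -0.18 to 0.10. So few correlations cannot decide whether the numbers pair the libraries. The cause of these shifts was not tested.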

Other observations

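The table also holds 42 pseudogenes and 6 long noncoding RNA genes with names built on proteasome genes. Of the pseudogenes 5 were high enough to test and 8 were listed at 0 in all libraries. PSMC1P1, a processed copy of the ATPase gene PSMC1, stood at 31.8, 36.1 and 32.7 FPKM in stuffer and 39.4, 39.9 and 37.7 FPKM in the labelled overexpression libraries. PSMC1 itself stood at 21.3 and 24.6 FPKM on average, with fragments divided by 6129 merged bases against 1320 for the copy, so these levels do not rank them. The groups of PSMC1P1 were separate, and its log2 fold change of 0.22 was close to the 0.20 of PSMC1 (limma-trend, Benjamini-Hochberg adjusted p = 0.317 and 0.368). PSMA6P1 had -0.22, beside -0.31 for PSMA6. PSME2P1 and PSME2P2 had -0.14 and -0.06, beside -0.22 for PSME2. Copies share sequence with their parent genes, and how fragments were divided between them was not tested. The noncoding PSMA3-AS1 and PSMG3-AS1 had 0.02 and -0.12 (SE 0.21 each).

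NLRC5, a transactivator of antigen presentation genes, was below the filter and separated the groups, at 0.596, 0.528 and 0.545 FPKM in stuffer and 0.229, 0.225 and 0.0840 FPKM in the labelled overexpression libraries. It was singled out after its values were seen. IRF1, another regulator of the inducible subunits, stood at 1.33, 1.22 and 0.520 against 0.823, 0.659 and 0.637 FPKM with overlap, and TAP2 was also below the filter.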
